A study of Mus musculus with 4 samples.

Results

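The interferon response and RNA-sensing genes described here are 36 genes chosen by symbol, with chemokines left out, and all 36 were among the 32681 genes of the deposited table. They were followed in 4 primary neuronal cultures from the neocortex of wild-type CD-1 mice, an outbred strain, at embryonic day E13. A control short hairpin RNA (shRNA) was transfected into 2 of the cultures, and a hairpin directed at DcpS into the other 2; DcpS is the scavenger decapping enzyme, which clears the capped remnants of degraded mRNA. All cultures were grown in Neurobasal medium with B27 supplement, sodium pyruvate, GlutaMax and antibiotics. Both groups therefore carried a hairpin, and a culture without one was not analysed here, so a response common to both hairpins cannot be seen. The comparison asked whether the DcpS hairpin evoked an innate response to RNA beyond that of the control hairpin.

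Cells recognise foreign or misplaced double-stranded RNA through cytosolic helicases (RIG-I, encoded by Ddx58, and MDA5, encoded by Ifih1), which signal through the mitochondrial adaptor MAVS, and through the endosomal receptor TLR3. These pathways activate IRF3 and IRF7, which turn on type I interferon genes. Interferon binds the receptor pair IFNAR1 and IFNAR2, and a complex that holds STAT2 and IRF9 then switches on interferon-stimulated genes through a DNA element called the interferon-stimulated response element. Their products include the IFIT proteins, the OAS enzymes, the ubiquitin-like ISG15, and the MX GTPases. Hairpins and other short double-stranded RNAs can set off this pathway, so these genes are commonly read as a check of knockdown experiments.

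The response element can be written as GAAANNGAAA, or TTTCNNTTTC on the opposite strand. RefSeq promoters (GRCm38.p6, 250 bases before to 50 after each start) were matched for 27 of the 36 genes, and 12 of these 27 (44.4%) held that motif on either strand. Of all 27025 genes with such a promoter 3.99% did. The 12 were Bst2, Ddx58, Ddx60, Eif2ak2, Ifih1, Ifit1, Ifit3, Ifit3b, Isg15, Oas1a, Rsad2 and Stat2. Of the stretches upstream of the start, 5 are printed 5′ to 3′ along the gene's strand, with the motif in capitals. They are shown because the interferon-activated complex is known to act through this element, and because Bst2 was the only one of the 36 that passed the test. In both Bst2 and Isg15 the printed motif overlaps another match that begins 6 bases earlier.
Bst2 (chr8:71537577-71537606, minus strand): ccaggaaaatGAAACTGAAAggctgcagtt
Isg15 (chr4:156200865-156200894, minus strand): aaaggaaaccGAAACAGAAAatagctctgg
Ifit1 (chr19:34640794-34640823, plus strand): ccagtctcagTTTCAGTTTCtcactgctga
Ifit3 (chr19:34583397-34583426, plus strand): tttaagtctgTTTCAGTTTCtactttcctc
Ifit3b (chr19:34607793-34607822, plus strand): tttaagtctgTTTCAGTTTCtactttcctc
The Ifit3 and Ifit3b stretches are letter for letter the same. These neighbours are near-identical copies, so how their reads were split between them is uncertain.

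The libraries held 17754768 to 21793685 reads. Values are normalised read counts, that is reads divided by a size factor for each library. Dcps, the targeted gene, read 499.8 and 506.6 in the controls and 114 and 120 under DcpS shRNA, a log2 fold change of −2.10 (SE 0.11, limma, Benjamini-Hochberg adjusted p 1.52e-08), in the direction of the labels. Neuron markers were abundant in every library: the 13 listed genes, such as Tubb3, Map2 and Dcx, summed to 114973 and 113244 in the controls and 109744 and 108945 under DcpS shRNA. Since the labels do not tie the cultures to different litters or days, the p-values reflect the spread among these 4 libraries alone, and that spread may be technical.

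No gene of the 30 that passed the filter on low reads was called higher under DcpS shRNA. Of these 30, 1 was lower, the tethering antiviral protein gene Bst2, 0 were higher and 29 did not pass (limma, Benjamini-Hochberg adjusted p under 0.05 over 18110 genes). Over all genes tested, 3.65% were lower and 2.14% higher at the same threshold (5.79% in all), so a count of 1 lower in 30 is near the background of this fit. At an unadjusted p under 0.05, 8 of the 30 were lower and 0 higher, against 9.92% and 8.75% of all genes. edgeR gave 10 lower and DESeq2 3 lower at that unadjusted p, and both gave 0 higher, before and after adjustment. The median log2 fold change of the 30 was −0.32, beside 0.00074 over all genes tested, and 23 of them had a value below 0, as did 49.8% of all genes. In 15 of the 30 both DcpS shRNA libraries lay below both controls and in 4 above, where the shares over all genes were 24.0% and 24.4%. In bulk RNA, fewer cells of a type and less RNA per cell cannot be told apart.

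The size of a possible rise was gauged gene by gene. The upper end of the limma 95% interval lay below a 2-fold rise for 28 of the 30 genes, the exceptions being Tlr3 (2.04-fold) and Ifit3b (2.09-fold), and below a 1.5-fold rise for 25. Each interval covers a single gene, and the added count of 1 before taking logs makes changes look smaller for genes with few reads.

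**Figure D1:**
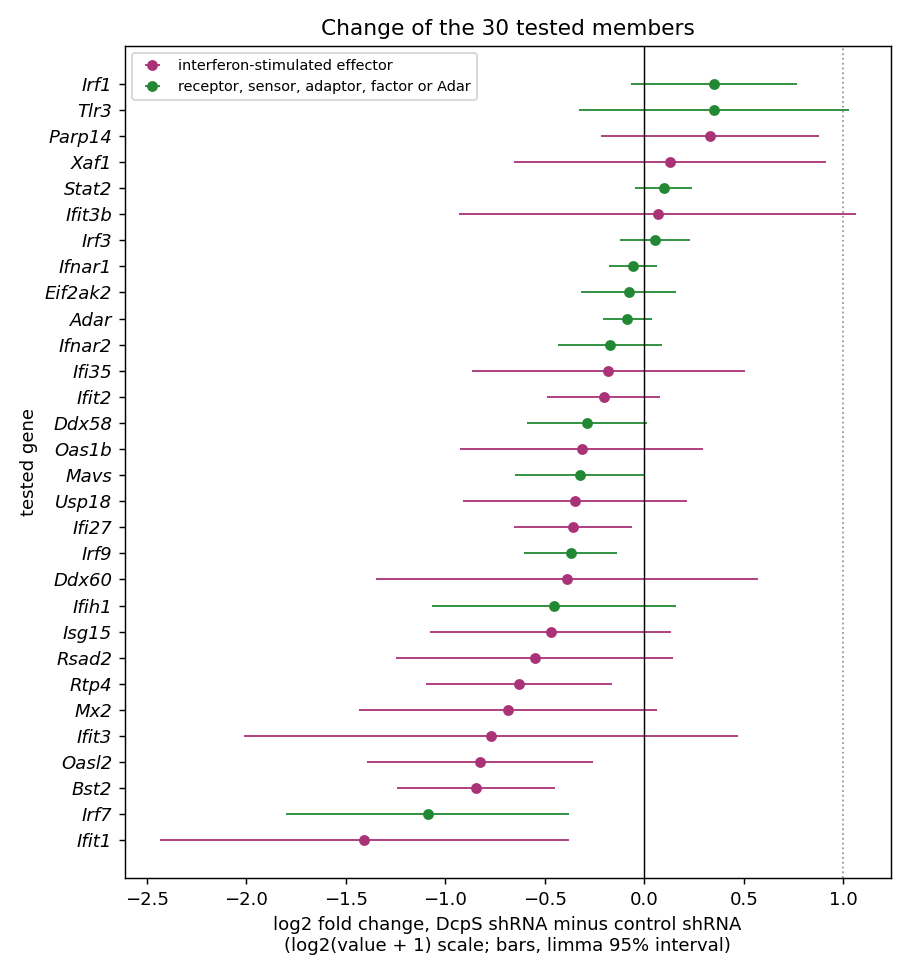
Log2 fold change of each of the 30 tested genes, DcpS shRNA minus control shRNA, with its limma 95% interval as a bar. The dotted line marks a 2-fold rise. Of the 8 intervals wholly below 0, that of Ifit1 has the lowest centre (−1.41), and only Tlr3 and Ifit3b reach past the dotted line.

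The receptor genes were well expressed and differed little. Ifnar1 read 1840 and 1997 in the controls and 1856 and 1828 under DcpS shRNA, and Ifnar2 read 238 and 229 against 185 and 232. Both genes overlapped between the groups. Their log2 fold changes were −0.06 and −0.17, with intervals from −0.18 to 0.06 and from −0.43 to 0.09. Per kilobase of annotated exon (GENCODE M21), Ifnar1 had the highest mean level of the 36 genes at 317, followed by Adar at 256 and Ifi27 at 134, while Oas2 was lowest at 0.639. The ligand gene Ifnb1 had 0 reads in 3 libraries and 1 read in control 2, where 0 reads allow up to 3 (counting error only).

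Among the sensors, none passed the test. Ddx58 read 163 and 214 in the controls and 144 and 162 under DcpS shRNA, and its kin Ifih1 read 26.6 and 33.8 against 19.1 and 24.6. Both DcpS shRNA libraries of each gene lay below both controls, with the nearest values 163 and 162 for Ddx58. The log2 fold changes were −0.29 (interval −0.59 to 0.01) and −0.45 (interval −1.07 to 0.16). Eif2ak2, which encodes the kinase PKR that halts translation on binding double-stranded RNA, read 361 and 473 against 409 and 374, and the groups overlapped. Tlr3 was the sensor that stood above the controls in both DcpS shRNA libraries, at 16.2 and 17.4 against 19.99 and 23.5. Its log2 fold change was 0.35 (interval −0.33 to 1.03, limma, Benjamini-Hochberg adjusted p 0.623). Zbp1, a sensor of Z-form nucleic acids, had 4 and 7 reads in the controls and 4 and 3 under DcpS shRNA, below the filter. Downstream of the helicases, Mavs read 134 and 180 against 126 and 122, with a log2 fold change of −0.32 (SE 0.15, limma, Benjamini-Hochberg adjusted p 0.266).

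The transcription factors differed in both directions, and none passed the test. Irf9, the DNA-binding subunit of the interferon-activated complex, read 406 and 389 in the controls and 272 and 348 under DcpS shRNA. Both were below both controls, and DcpS shRNA 1 was the lowest. The log2 fold change was −0.37 (SE 0.11) and missed the threshold (limma, Benjamini-Hochberg adjusted p 0.0611). Irf7, itself an interferon-stimulated gene, read 23.8 and 37.9 against 11.8 and 15.6. Its DcpS shRNA mean was 44.5% of the control mean, with a log2 fold change of −1.09 (SE 0.34, limma, Benjamini-Hochberg adjusted p 0.0720). Without a filter on low values both passed (adjusted p 0.0289 for Irf9 and 0.0466 for Irf7). By contrast Stat2 read 722 and 759 against 774 and 811, and Irf3, the factor that acts directly downstream of the sensors, read 429 and 436 against 465 and 434. The intervals were −0.05 to 0.24 for Stat2 and −0.12 to 0.23 for Irf3, the groups overlapping only for Irf3. Irf1 read 71.3 and 51.3 against 74.5 and 80.5, with the gap between the controls wider than that between control 1 and DcpS shRNA 1. Its log2 fold change of 0.35 (interval −0.07 to 0.77) did not pass. Exons of Irf3, Irf7, Irf9 and Adar overlap those of Bcl2l12, Phrf1, Rnf31 and Chrnb2 in the annotation. Rnf31 lies on the same strand as Irf9, and the other neighbours lie on the opposite strand. The use of strand and the handling of reads that fit several genes are not given, so reads of these neighbours may be mixed. Exons of Irf1, Oasl1, Usp18, Tlr3, Eif2ak2, Ifi35, Rtp4, Parp14 and Ifnar2 also overlap those of other annotated genes.

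Adar encodes the editing enzyme that marks self double-stranded RNA and so keeps MDA5 quiet. It read 2133 and 2138 in the controls and 2113 and 1920 under DcpS shRNA. Its interval, −0.21 to 0.04, was among the narrowest.

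The interferon-stimulated effectors make up 22 of the 36 genes. Both DcpS shRNA libraries lay below both controls in 11 of these 22 and in 7 of the 14 other genes, untested genes included. Among tested genes this held for 9 of 17 effectors and 6 of 13 others, where the share over all genes was 24.0%. Over the 22 effectors, normalised read counts summed to 806 and 958 in the controls and to 609 and 713 under DcpS shRNA, 74.9% of the control mean. Both DcpS shRNA sums lay below both controls, and within each group the library numbered 2 was the higher. Of the 17 effectors tested, 1 passed, 14 had a log2 fold change below 0, and their median was −0.39, as against −0.08 over the 13 tested receptors, sensors, factors and Adar.

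Bst2 (tetherin, which holds budding virus at the cell surface, GRCm38 chromosome 8, 71534255 to 71537456, on the minus strand in GENCODE M21) was the gene that passed. It read 90.3 and 120 in the controls and 61.8 and 53.6 under DcpS shRNA, so the groups stood apart. Its control mean of 105 ± 21.0 fell to 57.7 ± 5.76 (SD, n = 2 in each group), a log2 fold change of −0.84 (SE 0.19, limma, Benjamini-Hochberg adjusted p 0.0126). Leaving out control 2 ended the call (limma, Benjamini-Hochberg adjusted p 0.175), as did DESeq2 (0.109), and over all alternatives its adjusted p ran from 0.000318 to 0.175.

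Among the IFIT genes, some of whose products bind the 5′ end of RNA that lacks self marks, Ifit1 had the largest difference of the 30 tested. It had 13 and 20 reads in the controls and 4 and 7 under DcpS shRNA, or 12.4 and 20.5 against 3.63 and 7.82 as normalised read counts. The log2 fold change of −1.41 (SE 0.49) did not pass (limma, Benjamini-Hochberg adjusted p 0.114). Ifit3 read 7.60 and 21.5 against 3.63 and 13.4, and here the libraries numbered 2 exceeded those numbered 1 in both groups by more than the groups differed. Ifit3b read 6.65 and 12.3 against 8.18 and 11.2 and overlapped too. Ifit2, the IFIT with the most reads, differed by less, at 150 and 143 against 130 and 124 (interval −0.49 to 0.08).

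The OAS enzymes, on binding double-stranded RNA, make short oligoadenylate chains that activate the nuclease RNase L, and Oasl1 and Oasl2 are their relatives. Oasl2 read 41.8 and 40.0 in the controls and 19.1 and 26.8 under DcpS shRNA. The groups stood apart, but the log2 fold change of −0.83 (SE 0.27) missed the threshold (limma, Benjamini-Hochberg adjusted p 0.0892). Oas1b read 24.7 and 29.7 against 20.9 and 22.3. Oas1a, Oas2 and Oasl1 had 1 to 9 reads in each library, below the filter. Among them only Oasl1, with 7 and 7 reads against 4 and 4, did not overlap between the groups.

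Isg15, the ubiquitin-like modifier, read 26.6 and 37.9 in the controls and 20.9 and 24.6 under DcpS shRNA. Its interval ran from −1.08 to 0.14, with the upper end at a 1.10-fold rise. Usp18, the protease that removes ISG15 and dampens the receptor, read 51.3 and 40.0 against 27.3 and 45.8 and overlapped. Rsad2, which encodes the antiviral enzyme viperin, read 19.95 and 33.8 against 18.2 and 16.8. The controls of Mx2, an antiviral GTPase, were 22.8 and 49.2, a wider gap than between the groups, whose other values were 16.4 and 25.7. Mx1 had 0 and 7 reads in the controls and 6 and 7 under DcpS shRNA, and 0 reads in control 1 allow a level of up to 2.85 normalised read counts (counting error only).

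The remaining effectors divided in the same way. Rtp4, a chaperone-like gene induced by interferon, read 59.9 and 50.3 in the controls and 34.5 and 35.8 under DcpS shRNA (log2 fold change −0.63, SE 0.22, limma, Benjamini-Hochberg adjusted p 0.121). Ifi27, a mitochondrial interferon-induced gene, read 207 and 234 against 148 and 199 (−0.36, SE 0.14, limma, Benjamini-Hochberg adjusted p 0.173). In both genes the groups stood apart without passing the test. Parp14, an ADP-ribosyltransferase, was the effector above the controls in both DcpS shRNA libraries, at 24.7 and 31.8 against 36.3 and 34.6 (interval −0.22 to 0.88). Ifi35 read 20.9 and 21.5 against 15.4 and 22.3, and Xaf1, a pro-apoptotic gene, 11.4 and 18.5 against 16.4 and 15.6. Ddx60, a helicase gene, read 8.55 and 16.4 against 9.99 and 7.82. These last 3 genes overlapped between the groups. Ifi44 had 6 and 10 reads against 1 and 4, below the filter.

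**Figure D2:**
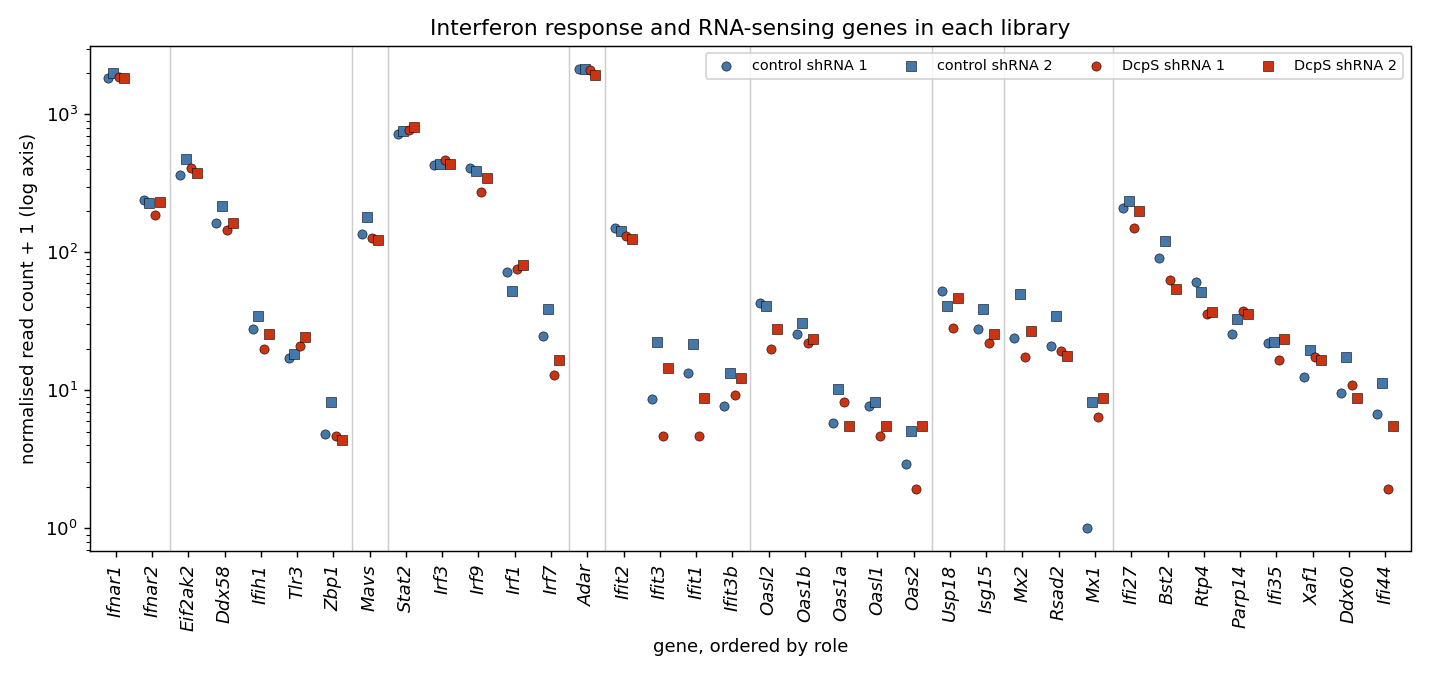
Normalised read count + 1 of all 36 genes in each of the 4 libraries, on a log axis, ordered by role and, within a role, by mean. Control libraries are blue and DcpS shRNA libraries red, with circles for libraries numbered 1 and squares for 2. Ifnar1 and Adar sit highest with little spread between libraries, while most effectors lie below 100.

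The level of these genes also differed between libraries of the same group. In 17 of the 36 genes the library numbered 2 exceeded the library numbered 1 in both groups, and in 1 gene the reverse held. Control 2 was above control 1 in 29 of 36 genes. The matching shares over all genes were not computed, so these counts do not show a trait particular to the 36. Leaving out control 2 gave a median log2 fold change of −0.15 over the 30 tested genes, and leaving out DcpS shRNA 1 gave −0.17. With each library left out in turn, the median ran from −0.39 to −0.15. The value of Bst2, the called gene, ran from −1.05 to −0.64. That of Irf1 ran from 0.12 to 0.59, highest without control 1. In each of these 4 fits 0 genes were called higher.

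**Figure D3:**
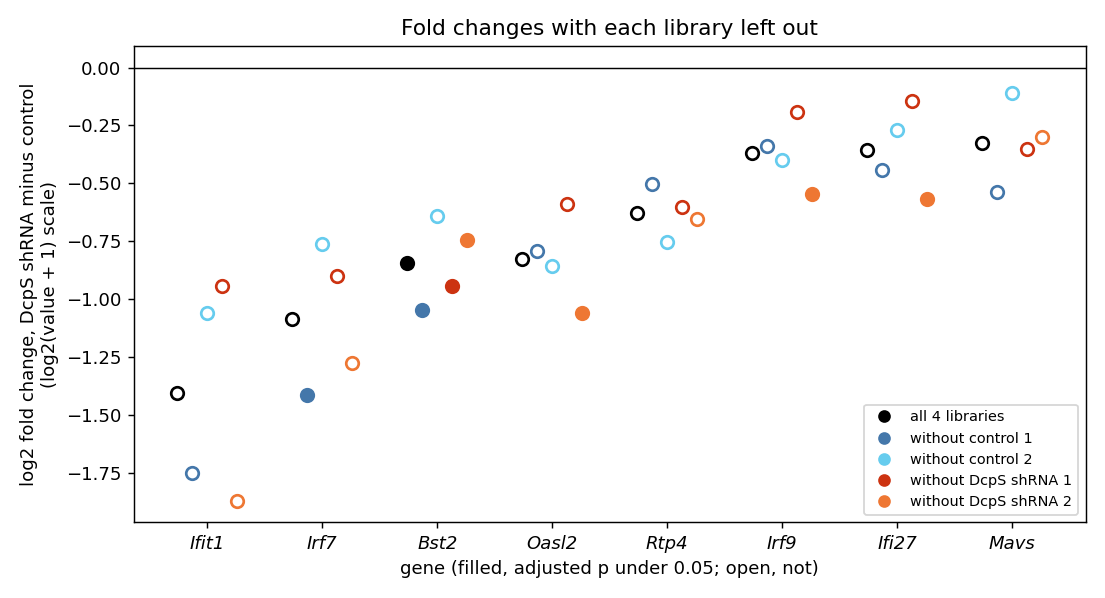
Log2 fold change of the 8 genes with an unadjusted limma p under 0.05, with all 4 libraries (black) and with each library left out in turn. Filled points passed the adjusted threshold of 0.05 and open points did not. All points lie below 0, and Bst2 loses its call without control 2.

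Other genes of the same pathways were listed in 3 groups. Of 14 tested genes of interferon signalling, 1 was lower, the cytokine-activated factor Stat3 (1010 and 1043 in the controls, 824 and 860 under DcpS shRNA, log2 fold change −0.29), and 1 higher, the corepressor Irf2bp2 (486 and 394 against 548 and 561, 0.34). With all 4 libraries, 0 of 27 tested RNA and DNA sensing genes were called by limma, edgeR or DESeq2 with group as the only term. At an unadjusted p under 0.05, limma had 2 lower and 1 higher, edgeR 3 and 1, and DESeq2 0. Without DcpS shRNA 1, limma called 1 of the 27 lower (Benjamini-Hochberg adjusted p 0.0471). This was Tnfaip3, an inhibitor of NF-kB signalling, named after its values were seen, which read 71.3 and 85.1 in the controls and 57.2 and 45.8 under DcpS shRNA. Of 49 other interferon-stimulated genes 6 were lower and 0 higher, with 8 lower and 2 higher at an unadjusted p under 0.05. Their median was −0.07. Over all genes tested, limma called 3.65% lower and 2.14% higher. At the unadjusted p, 9.92% were lower and 8.75% higher.

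The 6 were genes of cell-surface, secreted or membrane products and an immunity GTPase. Lgals3bp, a secreted glycoprotein, fell by 1.25 (SE 0.16) on the log2 scale (177 and 226 in the controls, 76.3 and 91.6 under DcpS shRNA). Irgm1, the immunity GTPase, fell by 1.05 (73.2 and 79.0 against 30.9 and 42.5), and the membrane antiviral gene Ifitm3 by 1.00 (103 and 162 against 56.3 and 72.6). Its neighbour Ifitm1 fell by 2.09 from few reads (23.8 and 14.4 against 5.45 and 2.23), while their homologue Ifitm2 read 77.0 and 97.4 against 85.4 and 92.8. The galectin Lgals9 fell by 0.84 (75.1 and 76.9 against 41.8 and 42.5) and B2m, the light chain of MHC class I, by 0.52 (868 and 888 against 568 and 655). Their adjusted p-values ran from 0.000116 for Lgals3bp to 0.0224 for Ifitm1 (limma, Benjamini-Hochberg). Leaving out control 2 ended the call of Ifitm3 (limma, Benjamini-Hochberg adjusted p 0.120), and those of Lgals9 (0.0913 without control 2, 0.0645 without control 1) and Ifitm1 (0.234 without control 1, 0.0684 without DcpS shRNA 2) ended too. Stat3 lost its call without control 2 (0.104), and Irf2bp2 lost its call without control 2 (0.458), DcpS shRNA 1 (0.0524) or DcpS shRNA 2 (0.0991). DESeq2 called Lgals3bp, B2m and Ifitm3 of these 8 genes.

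Beyond the 36 genes, 402 other tested genes held the response-element motif in a RefSeq promoter. Of these 25 (6.22%) were lower and 6 (1.49%) higher, where 4.24% and 2.55% of all 11741 tested genes with a promoter entry were lower and higher. Their median log2 fold change was −0.0063. Among the 36, the 11 tested genes with the motif had a median of −0.45 with 9 below 0, and the 13 with an entry and no motif had a median of −0.17 with 9 below 0. The motif match is a description of these letters and not of a bound site.

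Several cell types of the embryonic cortex and its coverings express interferon-stimulated genes, and some of their markers differed with the hairpin. Most meningeal fibroblast markers were lower: 12 of 15 tested were called lower and 0 higher, where 3.65% and 2.14% of all genes were. The list summed to 18865 and 20393 in the controls and 11991 and 11472 under DcpS shRNA. The 3 not called were Foxc1 (46.6 and 56.4 against 46.3 and 29.1), Aldh1a2 (63.7 and 80.0 against 51.8 and 42.5) and Vtn. Vtn read 168 and 135 against 159 and 165, and its groups overlapped. Of 10 endothelial and mural markers 3 were lower and 0 higher, with sums of 1446 and 1522 against 1247 and 1176. Among these 10, both DcpS shRNA libraries lay below both controls in 6 and above in 2, and 2 overlapped. Over all genes tested the shares were 24.0% below and 24.4% above. The 2 markers above were Pecam1 and Notch3 (601 and 616 against 699 and 660). Much of the lower sum came from the called gene Pdgfrb (506 and 534 against 329 and 304). Of 11 astrocyte markers 6 were lower and 1 higher, with sums of 14201 and 14324 against 13257 and 13356. Of 13 neuron markers 2 were lower and 1 higher. Of 15 microglia and macrophage markers 0 were lower and 1 higher, the lysosomal gene Laptm5 (47.5 and 61.5 against 97.2 and 83.8), and the sums were 585 and 591 against 601 and 641. Their defining genes differed in level: P2ry12 and Trem2 had 0 to 3 reads in every library, while Aif1 read 54.2 and 47.2 against 30.9 and 44.7, and Csf1r 38.0 and 39.0 against 31.8 and 32.4. Cx3cr1 read 14.3 and 19.5 against 11.8 and 11.2, and Tmem119 28.5 and 25.6 against 42.7 and 38.0. None of these 4 was called, and both DcpS shRNA libraries lay below both controls for Aif1, Csf1r and Cx3cr1 and above them for Tmem119. Over the 15 tested microglia and macrophage markers they lay below both controls in 3 and above in 4, and 8 overlapped. The shares over all genes were again 24.0% and 24.4%. Laptm5, Tyrobp and C1qa were the others above, so this list had no common direction. The part of these cells in the lower effector levels was not tested.

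**Figure D4:**
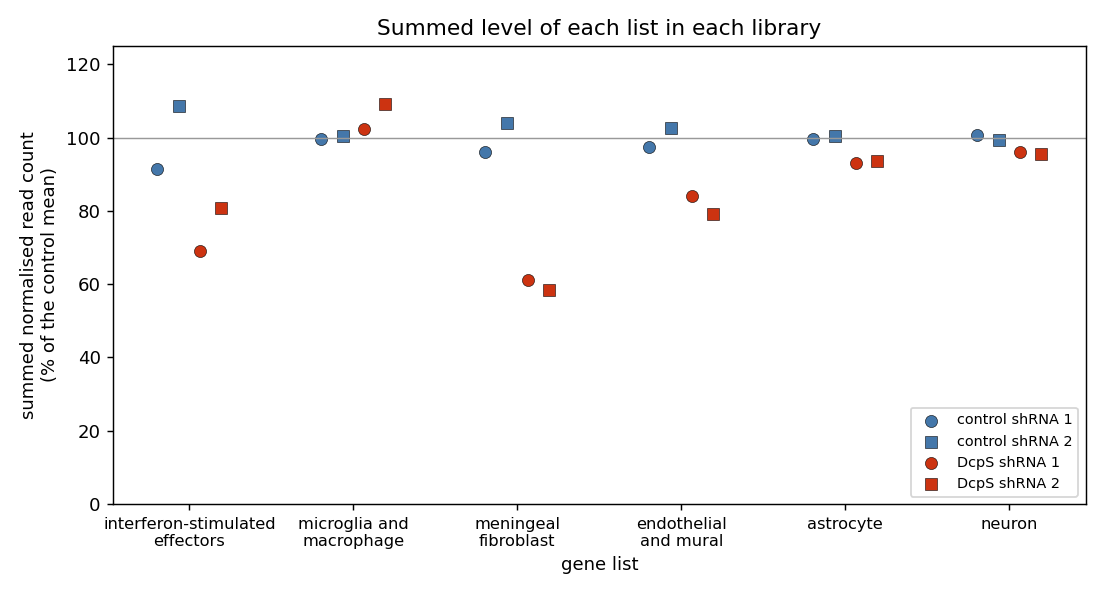
Summed normalised read count of each gene list in each library, as a percentage of the mean of the 2 controls, with controls in blue and DcpS shRNA in red. The 22 effectors averaged 74.9% of control with DcpS shRNA, meningeal fibroblast markers 59.8%, endothelial and mural markers 81.6%, and microglia and macrophage markers 106%.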

How the data were processed

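The deposited table holds a normalised signal per gene, 1 column per library: per the file's values, each is a read count that the authors divided by a size factor. Dividing by each column's smallest positive value gave whole reads for 100% of values (tolerance 0.001), and the implied factors (0.895 to 1.10) equalled median-of-ratios factors. Per the submitters' processing notes the tools were HISAT2 2.2.0, SAMtools 1.3.1, Picard, featureCounts and DESeq2, with build GRCm38; the sources used here do not give the annotation, the use of strand or how reads that fit several genes were handled.

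The main test was limma 3.58.1 on log2(value + 1), with trend and robust empirical Bayes and group as the only term, over 18110 genes kept by filterByExpr of edgeR 4.0.16 (minimum count 10). An exact permutation test of 2 against 2 cannot go below p 0.333. The script was tested on simulated data. Alternatives were edgeR and DESeq2 1.42.0 on recovered reads, other scalings, pseudocounts of 0.5 and 5, other filters, a replicate block and each library left out. Every one of the 36 genes is named; values per library are given for those with a mean of at least 10, folds with SE for an unadjusted p under 0.05, and called genes of the other lists. The genes, lists and tests were chosen with earlier results of these data known. Tmem173 and Mb21d1 were matched as Sting1 and Cgas through RefSeq synonyms, and 6 listed genes without a matching symbol were not analysed here.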

Additional observations from a re-analysis of the deposited data

How the results depend on the processing

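The number of lower calls among the 36 genes moved between settings, and 0 were called higher in any of them. It was 1 in the main setting, with edgeR, with other scalings and pseudocounts and at a minimum mean of 50, 0 with DESeq2, 3 with no filter, and 0 to 4 with each library left out. Calls over all genes numbered 1048, 1077 with edgeR, 448 with DESeq2 and 594 to 1439 with each library left out. Those among other pathway genes numbered 8, 3 with DESeq2 and 4 to 8 with each library left out. The median log2 fold change of the tested genes was −0.32, −0.17 at a minimum mean of 50 and −0.39 to −0.15 with each library left out. The cause of these moves was not tested. Leaving out a library turned the sign for 8 genes that were not called, whose ranges were −0.82 to 0.044 for Ddx60, −0.27 to 0.12 for Eif2ak2, −0.43 to 0.072 for Ifi35, −1.59 to 0.050 for Ifit3, −0.33 to 0.47 for Ifit3b, −0.12 to 0.0021 for Ifnar1, −0.71 to 0.016 for Usp18 and −0.20 to 0.45 for Xaf1. Where a library is left out, the lone sample of its group is assumed to vary like the others. The titles number the libraries 1 and 2 in each group, after the word set, without saying what a set shares. The difference between numbers 1 and 2 correlated between the groups at 0.043 across all tested genes and at 0.319 across the 30 tested here (genes are not independent replicates). With the replicate block, limma called 1626 genes, 6 of them among the 36 (Bst2, Ifi27, Ifit1, Irf7, Irf9 and Oasl2), and edgeR 1385 and 4, all lower, where 5.41% and 4.86% of all genes were called lower. That limma fit also called Tnfaip3 lower (adjusted p 0.0403). The filter left out 6 of the 36 genes, with 0 to 10 reads in each library, and all 36 were tested with no filter.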
